A study of Mus musculus with 18 samples.

Results

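The mammalian *Hox* genes encode homeobox transcription factors that lie in 4 clusters, *Hoxa* to *Hoxd*. All protein-coding genes named *Hoxa*, *Hoxb*, *Hoxc*, or *Hoxd* and a number in the GENCODE annotation of mm9 were taken, which gave 39 genes of the 22254 protein-coding genes on chromosomes 1 to 19 and X. There were 11 in the *Hoxa* cluster, 10 in *Hoxb*, 9 in *Hoxc*, and 9 in *Hoxd*. An open region was counted for a gene when its midpoint lay in the gene body or within 5 kb of either end, and each cluster was also read as a whole, from its first to its last *Hox* gene and 50 kb on either side. Of 69499 open regions in liver macrophages (LMs), 27 lay in the window of at least 1 *Hox* gene and 32 lay in the cluster windows.

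The regions came from fast-ATAC-Seq, in which a transposase cuts and tags DNA that is not wrapped in nucleosomes, with 50000 LMs in each reaction. The LMs were isolated at ZT10 and ZT22 from male C57BL/6J mice fed a high fat and high sucrose diet for 4 weeks, and the 3 genotypes were control, *Reverb*-hDKO (both Rev-erb genes deleted in hepatocytes), and *Reverb/Scap*-hTKO (*Scap* deleted as well). With 3 replicates in each of the 6 groups, there were 18 libraries. The mice carried floxed *Rev-erbα* and *Rev-erbβ* alleles, and floxed *Scap* for the hTKO, and received at 8 weeks of age an adeno-associated virus in which the hepatocyte TBG promoter drove Cre (knockouts) or GFP (controls), so the LMs themselves were not the cells targeted for deletion. The deposited regions were pooled over all libraries and carried a chromosome, a start, and an end only. No value could be given for a genotype, a time, or a replicate, depth was unknown, and all comparisons below are counts within this list with no test. A listed region may have been open in only some of the libraries.

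The genes of a *Hox* cluster are transcribed in the same direction and are numbered by paralogue group, from 1 at the 3′ end to 13 at the 5′ end. During development, genes at the 3′ end are switched on earlier and further toward the head than those at the 5′ end, retinoic acid acts first at the 3′ end, and Polycomb complexes hold clusters silent where they are not used. Adult cells keep a part of the pattern of their site of origin, and several *Hoxa* and *Hoxb* genes are known from blood progenitors.

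The regions that bear on the account below are shown first, numbered in each cluster from the 3′ end, on the plus strand of NCBIM37, the assembly behind mm9. Capitals mark matches, on either strand, to the motif patterns AP-1 (TGANTCA), PU.1 (GAGGAAGT), HOX-PBX (TGATNNAT), and SP/KLF (GGGCGG), and to a retinoic acid response element of the DR5 type and a CTCF core (AGGNGGCGC). The CTCF core was chosen after some of the sequences had been seen. In the *Hoxa* cluster, region 3 at chr6:52110199-52110383 lay 5.03 kb from the first base of *Hoxa2* and had an AP-1 match. Region 4 at chr6:52120804-52121059, in an intron of *Hoxa3*, had a PU.1 match. Region 6 at chr6:52125523-52125673, also in a *Hoxa3* intron, had the DR5 element and a HOX-PBX match. Region 7 at chr6:52141884-52142095 lay 132 bp from the first base of *Hoxa4*, and region 11 at chr6:52161688-52161928 lay 333 bp from that of *Hoxa6*; they show the CpG-dense sequence at *Hoxa* starts. Region 15 at chr6:52180804-52180954 was the last in the cluster, beside *Hoxa9*.
Hoxa region 3: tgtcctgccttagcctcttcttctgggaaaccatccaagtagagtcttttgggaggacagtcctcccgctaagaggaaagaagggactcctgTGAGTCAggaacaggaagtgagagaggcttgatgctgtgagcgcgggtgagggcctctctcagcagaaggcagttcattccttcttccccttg
Hoxa region 4: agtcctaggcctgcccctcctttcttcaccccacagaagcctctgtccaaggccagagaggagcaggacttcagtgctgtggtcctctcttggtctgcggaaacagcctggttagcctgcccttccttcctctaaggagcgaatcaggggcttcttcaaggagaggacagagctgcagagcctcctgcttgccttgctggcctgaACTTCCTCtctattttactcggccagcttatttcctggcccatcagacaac
Hoxa region 6: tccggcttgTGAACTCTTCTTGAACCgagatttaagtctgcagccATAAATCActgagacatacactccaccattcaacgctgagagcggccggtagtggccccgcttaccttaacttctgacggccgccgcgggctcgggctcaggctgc
Hoxa region 7: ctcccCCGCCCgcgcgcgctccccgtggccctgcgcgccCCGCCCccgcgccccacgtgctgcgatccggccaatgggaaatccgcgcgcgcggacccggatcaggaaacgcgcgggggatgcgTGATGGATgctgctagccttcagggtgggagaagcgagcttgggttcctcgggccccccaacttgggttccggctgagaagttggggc
Hoxa region 11: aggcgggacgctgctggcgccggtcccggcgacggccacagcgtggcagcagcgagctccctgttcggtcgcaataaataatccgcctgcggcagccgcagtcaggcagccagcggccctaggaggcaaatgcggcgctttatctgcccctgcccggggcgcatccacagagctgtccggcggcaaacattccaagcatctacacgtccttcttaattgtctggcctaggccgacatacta
Hoxa region 15: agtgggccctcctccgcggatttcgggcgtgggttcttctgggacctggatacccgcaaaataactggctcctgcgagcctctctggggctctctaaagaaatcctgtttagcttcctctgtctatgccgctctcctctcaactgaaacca

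In the *Hoxb* cluster, region 4 at chr11:96175124-96175274 lay between *Hoxb4* and *Hoxb5* and in no other *Hox* window than that of *Hoxb4*. It is shown because it had 0 CpG, unlike the other *Hox* regions.
Hoxb region 4: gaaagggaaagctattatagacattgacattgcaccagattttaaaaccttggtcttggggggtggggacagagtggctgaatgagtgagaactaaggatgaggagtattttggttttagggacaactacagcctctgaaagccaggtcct

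In the *Hoxc* cluster, the regions at *Hoxc6* and *Hoxc8* are shown, which lay away from *Hox* starts. Region 1 at chr15:102829730-102829896 was in an intron of *Hoxc6*, and region 2 at chr15:102817994-102818144 lay between *Hoxc8* and *Hoxc9* and had a CTCF core.
Hoxc region 1: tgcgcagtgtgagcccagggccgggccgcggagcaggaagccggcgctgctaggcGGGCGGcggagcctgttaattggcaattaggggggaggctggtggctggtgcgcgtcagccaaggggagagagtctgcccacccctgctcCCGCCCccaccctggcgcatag
Hoxc region 2: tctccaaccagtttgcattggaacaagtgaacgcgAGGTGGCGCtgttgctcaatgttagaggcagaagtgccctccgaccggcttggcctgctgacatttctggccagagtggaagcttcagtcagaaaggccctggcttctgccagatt

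In the *Hoxd* cluster, region 3 at chr2:74553922-74554072 was in an intron of *Hoxd3* and an exon of the long noncoding RNA 1700109F18Rik, and it had the other CTCF core. Regions 4 and 5, at chr2:74511167-74511317 and chr2:74511000-74511150, stood side by side between *Hoxd13* and *Hoxd12*.
Hoxd region 3: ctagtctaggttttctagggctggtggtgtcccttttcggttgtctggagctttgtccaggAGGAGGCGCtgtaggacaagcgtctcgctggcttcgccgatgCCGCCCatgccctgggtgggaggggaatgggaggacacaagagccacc
Hoxd region 4: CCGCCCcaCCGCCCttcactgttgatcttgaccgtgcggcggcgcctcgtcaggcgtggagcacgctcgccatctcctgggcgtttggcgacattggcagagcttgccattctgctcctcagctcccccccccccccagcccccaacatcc
Hoxd region 5: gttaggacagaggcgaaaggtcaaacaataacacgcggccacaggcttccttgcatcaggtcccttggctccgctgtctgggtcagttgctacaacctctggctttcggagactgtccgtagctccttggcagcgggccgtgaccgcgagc

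The 4 clusters differed in how many open regions they held. The *Hoxa* window had 18, *Hoxb* 6, *Hoxc* 3, and *Hoxd* 5. Between the outer ends of the first and last genes, this was 14.2 regions per 100 kb in *Hoxa*, 2.30 in *Hoxb*, 2.59 in *Hoxc*, and 5.16 in *Hoxd*, against a median of 1 region (quartiles 0 and 4) in 26378 tiles of 100 kb of the genome. The *Hoxa* window held more regions than 92.4% of 12832 genome windows of its own length. For *Hoxb*, *Hoxc*, and *Hoxd* these shares were 58.4%, 50.0%, and 62.3%, so these 3 windows lay near the middle of the distribution. *Hox* clusters are dense in genes, however, and windows with at least as many protein-coding starts had medians of 20 to 23 regions. Among those windows, the *Hoxa* window had more regions than 37.3%, and the others had more than 18.9% (*Hoxc*) and 20% (*Hoxb* and *Hoxd*).

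**Figure D1:**
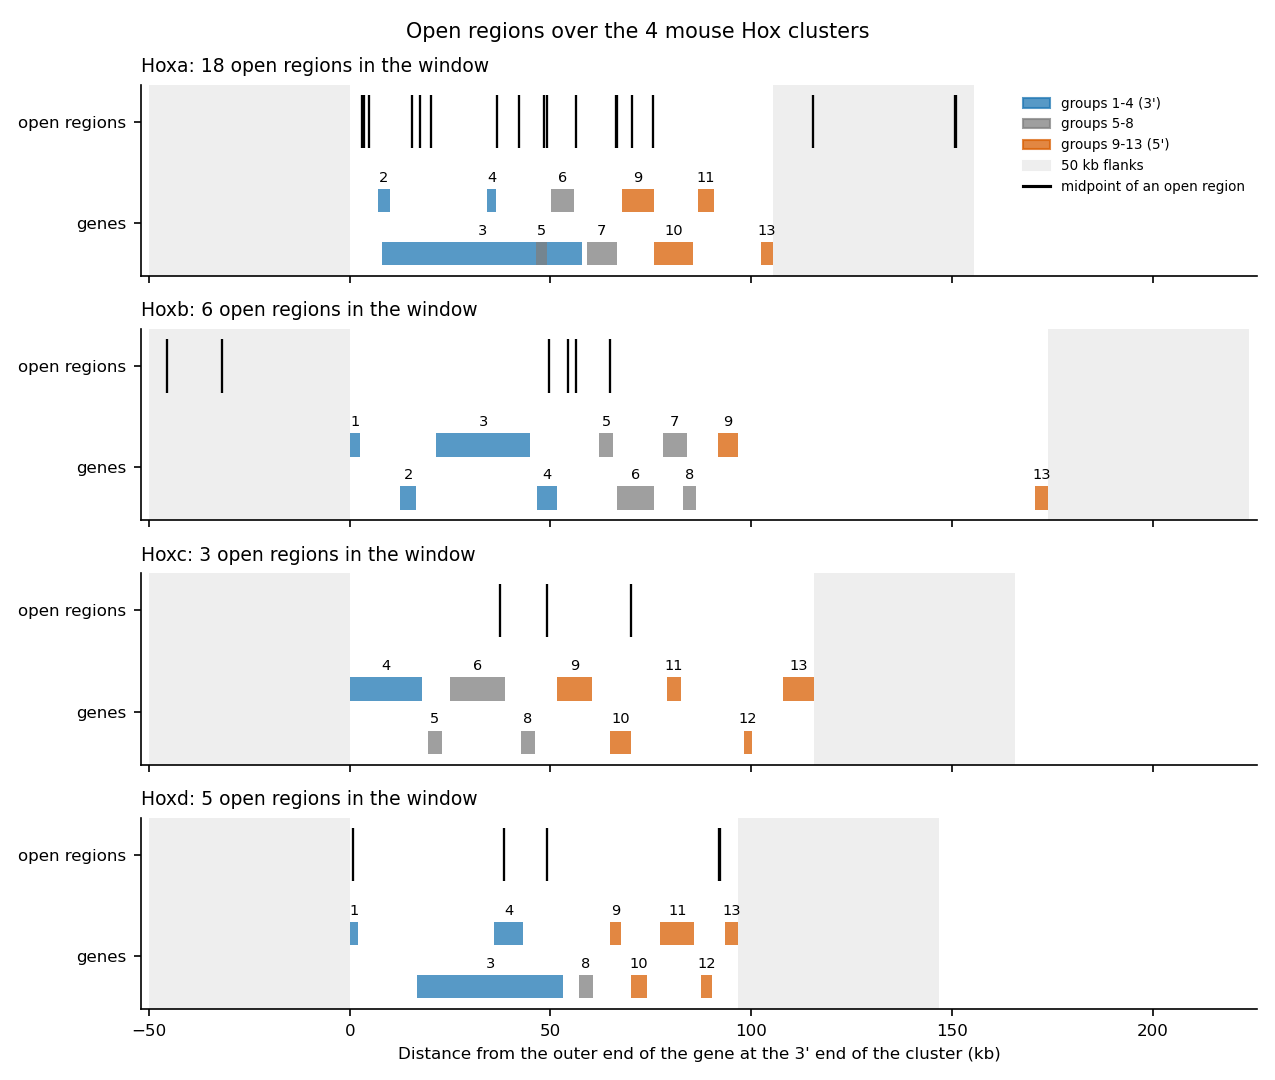
Maps of the 4 *Hox* clusters, drawn from the 3′ end at 0 kb to the 5′ end. Boxes are genes with their paralogue group above (the *Hoxa3* body runs over those of *Hoxa4*, *Hoxa5*, and *Hoxa6*), black lines are the midpoints of open regions, and gray bands are the 50 kb flanks. Within the clusters, the last region lies at *Hoxa9* in *Hoxa* (75.51 kb), at *Hoxb5* in *Hoxb* (64.87 kb), and at *Hoxc10* in *Hoxc*.

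**Figure D2:**
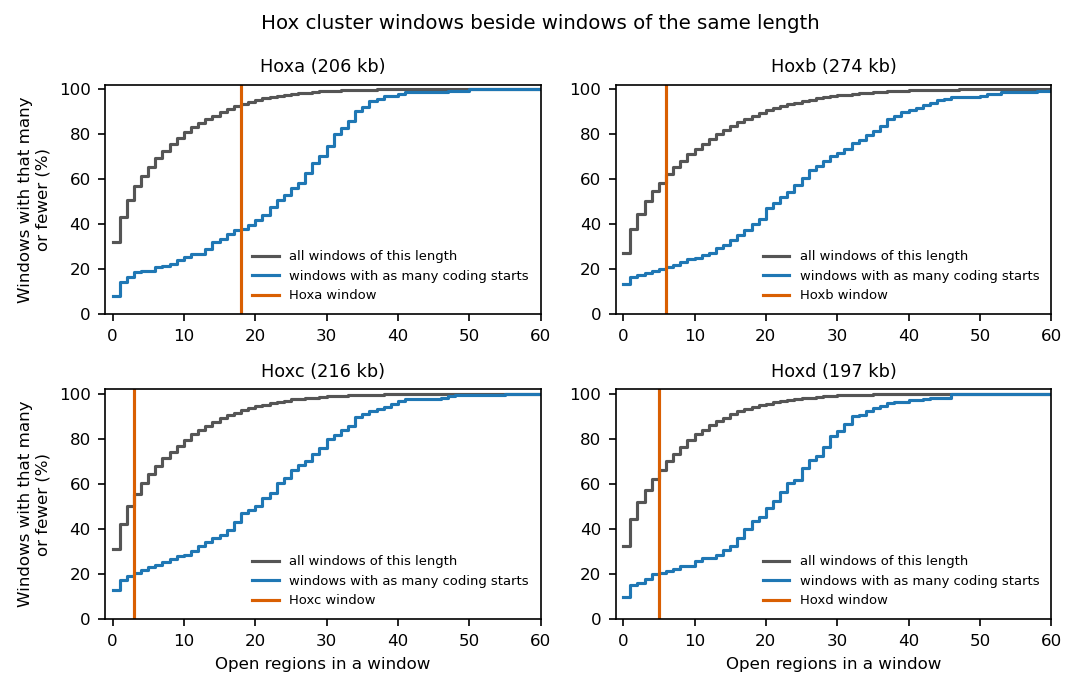
Cumulative share of genome windows (%) by the number of open regions in them, for windows as long as each *Hox* cluster window (gray) and for those of them with at least as many protein-coding starts (blue). The vertical line is the *Hox* window. The *Hoxa* line at 18 lies far right on the gray curve, and all 4 lines lie below the middle of the blue curves.

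The *Hoxa* cluster, at chr6:52105366-52210874 on the minus strand, spans 106 kb and held 15 regions between its ends. All 4 of its 3′ genes (groups 1 to 4) and all 3 central genes (groups 5 to 8) had an open region in their window, as did 2 of the 4 5′ genes (groups 9 to 13). *Hoxa3*, which acts in the formation of the thymus and parathyroid, had 11 regions, the most of any *Hox* gene, but its annotated body of 49981 bp covers *Hoxa4*, *Hoxa5*, and *Hoxa6*, and 3 of the 11 lay in no other *Hox* window. A pair of entries in the annotation carry the name *Hoxa3*, and the longer covers the shorter, so they were counted as 1 gene. *Hoxa7* and *Hoxa9* had 4 regions each, *Hoxa2*, *Hoxa5*, and *Hoxa6* had 3 each, and *Hoxa4* and *Hoxa10* had 1 each. *Hoxa11* and *Hoxa13*, which pattern the limbs and the urogenital tract, had 0.

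An open start was defined as an open region overlapping 1 kb on either side of any annotated transcription start. Of the *Hoxa* genes, 7 of 11 had an open start, beside 57.2% of all protein-coding genes. A region covered the first base of *Hoxa5*, a gene of lung and axial development, and that of *Hoxa7*. The nearest region lay 132 bp from the first base of *Hoxa4*, 134 bp from that of *Hoxa9*, a regulator of blood progenitors, and 333 bp from that of *Hoxa6*. For *Hoxa3* the region lay at an inner start. That region was 337 bp wide and was the widest of all *Hox* regions. Of the genes with no open start, *Hoxa2* had its nearest region 5.03 kb from its first base, *Hoxa10* 9.90 kb, *Hoxa11* 15.3 kb, and *Hoxa13* 9.72 kb. The run from *Hoxa9* to *Hoxa13* was the longest empty stretch of the cluster, at 30.0 kb, and the next regions lay in the 5′ flank, which held 3. The 3′ flank held 0.

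The *Hoxb* cluster, at chr11:96055630-96229570 on the plus strand, is the longest at 174 kb because *Hoxb13* lies far from the other genes. It held 4 regions, all from *Hoxb4* to *Hoxb5*. *Hoxb4*, known for expanding blood stem cells when added to them, had 3 regions and *Hoxb3*, *Hoxb5*, and *Hoxb6* had 1 each, but *Hoxb3* shared its region with *Hoxb4*, and *Hoxb5* shared its with *Hoxb6*. *Hoxb5* was the only gene of the cluster with an open start, 682 bp from its first base. The nearest region lay 1.93 kb from the first base of *Hoxb4*, 4.55 kb from that of *Hoxb3*, and 10.8 kb from that of *Hoxb6*. The other 6 genes had 0 regions. The first bases of *Hoxb7* and *Hoxb8* were 19020 and 21372 bp from a region, those of *Hoxb9*, *Hoxb2*, and *Hoxb1* were 31.8, 32.9, and 34.2 kb away, and that of *Hoxb13*, a gene of the prostate and the tail end of the body, was 109 kb away, the farthest of all *Hox* genes. The 3′ flank held 2 regions and the 5′ flank 0.

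The *Hoxc* cluster, at chr15:102751534-102867274 on the plus strand, spans 116 kb and has no genes of groups 1 to 3. It held 3 regions, and both flanks held 0. *Hoxc6*, *Hoxc8*, *Hoxc9*, and *Hoxc10* had 1 region each, and that of *Hoxc8* and *Hoxc9*, which pattern the thoracic skeleton, was the same region. *Hoxc10* was the only gene with an open start. *Hoxc6* was just outside the limit, with a region 1042 bp from its first base, and *Hoxc8* and *Hoxc9* were 2.91 and 9.68 kb away. *Hoxc4*, *Hoxc5*, *Hoxc11*, *Hoxc12*, and *Hoxc13* had 0 regions, with the nearest 19.5, 14.3, 12.2, 29.9, and 45.5 kb from their first bases. *Hoxc13* is known for hair and nails, and the 45.6 kb over *Hoxc11*, *Hoxc12*, and *Hoxc13* to the 5′ end were empty.

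The *Hoxd* cluster, at chr2:74506367-74603200 on the plus strand, spans 96.8 kb and held 5 regions with 0 in either flank. There was 1 in *Hoxd1*, 2 were in *Hoxd3*, and 2 lay between *Hoxd13* and *Hoxd12*, with none at the genes of groups 8 to 11. All 3 of its 3′ genes had regions, 1 for *Hoxd1*, 2 for *Hoxd3*, and 1 for *Hoxd4*, and *Hoxd3* and *Hoxd4* had open starts because of a single region at an inner start of *Hoxd3* that lay 269 bp from a start of *Hoxd4*. The first bases of *Hoxd3* and *Hoxd4* were 3.94 and 4.68 kb from a region. *Hoxd1* was just outside the limit at 1337 bp. *Hoxd12* and *Hoxd13*, the genes of the digits, shared their 2 regions, which lay 1.67 kb from the first base of *Hoxd12* and 4.63 kb from that of *Hoxd13*. *Hoxd8*, *Hoxd9*, *Hoxd10*, and *Hoxd11* had 0 regions, with the nearest 11.2, 18.2, 17.8, and 6.13 kb from their first bases, and this stretch, from region 3 to region 4, was 42.8 kb long.

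In all, 22 of the 39 *Hox* genes (56.4%) had an open region in their window, against 70.9% of all protein-coding genes. *Hox* genes are short, with a median body of 4058 bp, and a short gene has a smaller window. Of the 34 *Hox* genes of at most 10 kb, 18 (52.9%) had a region, against 49.5% of the 8798 protein-coding genes of that length, so the share of *Hox* genes was near the background once length was matched. The windows of neighboring *Hox* genes also overlap, and 18 of the 27 regions counted for more than 1 gene, with up to 3 genes for 1 region. The 22 genes are therefore not separate observations.

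**Figure D3:**
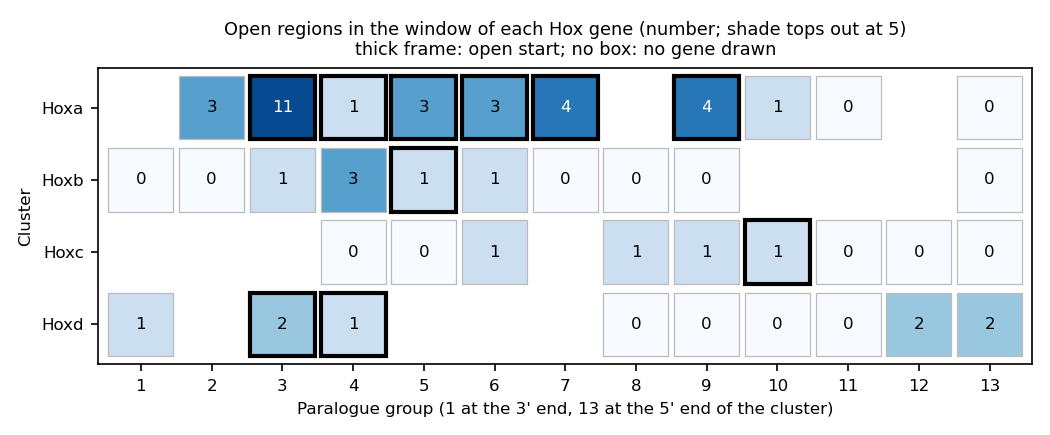
Number of open regions in the windows of the *Hox* genes drawn, by paralogue group (columns) and cluster (rows), with darker boxes for more regions and thick frames for genes with an open start. The *Hoxa* row holds regions up to group 10, and the *Hoxd* row is empty from group 8 to group 11.

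From the 3′ to the 5′ end the share of genes with an open region went down. It was 9 of 12 (75.0%) for the 3′ genes, 7 of 11 (63.6%) for the central genes, and 6 of 16 (37.5%) for the 5′ genes, and open starts were found at 5, 4, and 2 genes. In groups 1 to 4 the counts were 2 of 3, 1 of 2, 3 of 3, and 3 of 4 genes. In groups 5 to 8 they were 2 of 3, 3 of 3, 1 of 2, and 1 of 3. In groups 9 to 13 they were 2 of 4, 2 of 3, 0 of 3, 1 of 2, and 1 of 4. The fall was therefore not steady from group to group. With flanks of 10 kb in place of 5 kb, 9 of 12 3′ genes (75.0%) and 9 of 16 5′ genes (56.2%) had a region, so the difference went from 37.5 to 18.8 percentage points. Without the *Hoxa* cluster, chosen for this check after the data were seen, the shares were 5 of 8 (62.5%) and 4 of 12 (33.3%). The order was not the same in each cluster. In *Hoxa* the 3′ and 5′ counts were 4 of 4 and 2 of 4, in *Hoxb* 2 of 4 and 0 of 2, and in *Hoxd* 3 of 3 and 2 of 5, but in *Hoxc* they were 0 of 1 and 2 of 5. The 3′ genes include 4 that are longer than 10 kb and the 5′ genes include 0, so length and position in the cluster moved together, and the part of length in the difference was not tested.

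**Figure D4:**
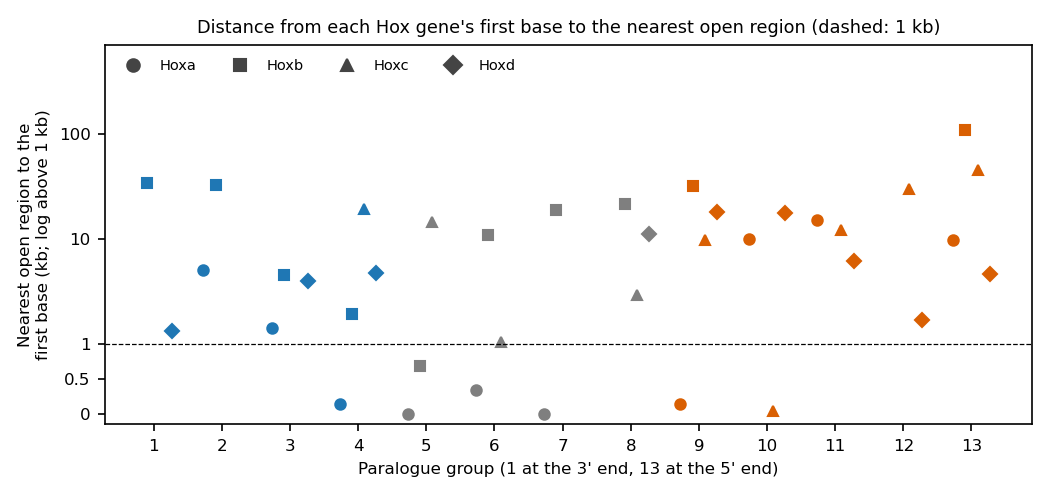
Distance (kb, log scale above 1 kb) from the first base of the *Hox* genes drawn to the nearest open region, by paralogue group, with 3′ genes in blue, central genes in gray, and 5′ genes in orange. *Hoxa3*, *Hoxd3*, and *Hoxd4* lie above the dashed line at 1 kb but have an open region at an inner start. The medians were 4.25 kb for the 3′ genes, 2.91 kb for the central genes, and 11.0 kb for the 5′ genes, and *Hoxb13* is the highest point.

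Open starts were less frequent among *Hox* genes than among genes as a whole. Of 39 *Hox* genes, 11 (28.2%) had an open start, against 57.2% of all protein-coding genes. The counts were 7 of 11 in *Hoxa*, 1 of 10 in *Hoxb*, 1 of 9 in *Hoxc*, and 2 of 9 in *Hoxd*. The *Hoxa* genes taken alone were thus not below the share of all genes. Starts rich in CpG are usually open in most cell types. A gene was put in the CpG-rich class by CpG observed over expected of at least 0.6 and GC of at least 50% within 1 kb of its first base, and in this list 87.7% of the 6626 protein-coding genes of the class had an open start at any annotated position. Of the 14 *Hox* genes of the class, 3 (21.4%) had an open start, namely *Hoxa4*, *Hoxa5*, and *Hoxd3*. The open start of *Hoxd3* was an inner one, and at the CpG-rich first base itself 2 of the 14 were open (14.3%), against 86.0% of the 6626 genes. The 11 of the class with no open start at any annotated position are *Hoxa11*, *Hoxa13*, *Hoxb9*, *Hoxc9*, *Hoxc11*, *Hoxc12*, *Hoxc13*, *Hoxd1*, *Hoxd8*, *Hoxd9*, and *Hoxd13*. Of these, 9 are 5′ genes. The 5′ genes had 9 of the 14 CpG-rich starts, of which 0 were open, against 3 such starts in the 3′ genes and 2 in the central genes. Both open starts of 5′ genes, at *Hoxa9* and *Hoxc10*, fell short of the CpG class. Of the 25 *Hox* genes without a CpG-rich start, 8 had an open start (32.0%), against 44.2% of other genes of that kind. With the class taken from 500 bp on either side, chosen after the data were seen, 6 of 19 *Hox* genes of the class (31.6%) had an open start at any position, against 87.2% of 9842 genes, and 4 (21.1%) had a region within 1 kb of the first base, against 85.6%.

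**Figure D5:**
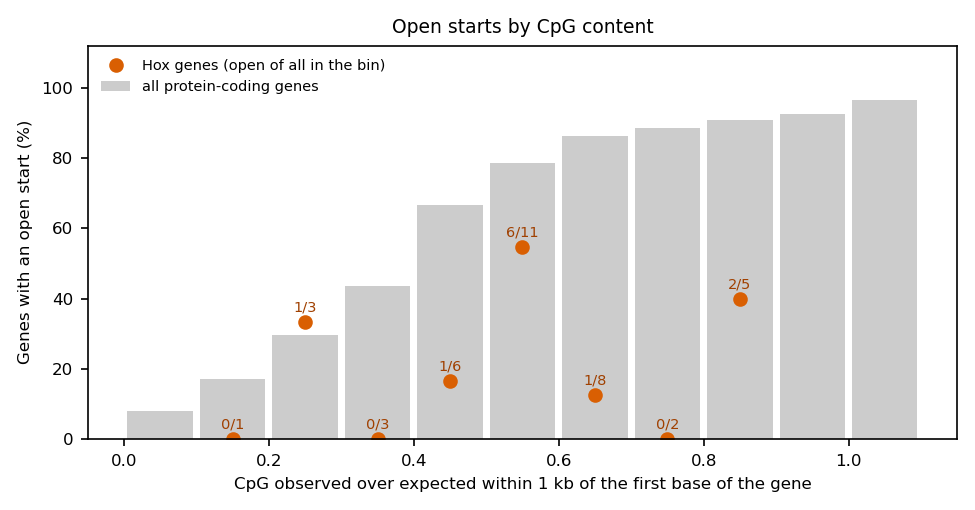
Share of genes with an open start (%) by CpG observed over expected within 1 kb of the first base, for all protein-coding genes (gray bars) and for the *Hox* genes of the same bin (orange points, with open and all *Hox* genes as a ratio). Bins of at least 20 genes are drawn. Their bars rise from 7.97% to 96.6%, and the *Hox* points lie below them in every bin with a *Hox* gene but that from 0.2 to 0.3, which holds 3.

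The other homeobox genes of a list of developmental factors were also seldom open at their starts. Of 67 such genes, 9 had an open start (13.4%) and 32 had a region in their window (47.8%), and of the 39 with a CpG-rich start 6 were open. The first in the alphabet, *Barx1*, *Barx2*, *Dlx1*, and *Dlx2*, had no open start. *Evx2*, which lies beyond *Hoxd13* in the 5′ flank of *Hoxd*, had its nearest region 13.1 kb from its first base.

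The genes for proteins that act on *Hox* genes or with their products were also counted. All 14 Polycomb genes of the list had an open start. Of these 14 genes 13 were of the CpG-rich class, so the count lies near the 87.7% of that class. Among them were *Bmi1*, *Cbx2*, *Cbx7*, and *Cbx8*, subunits of Polycomb repressive complex 1. All 7 genes of CTCF and cohesin, which shape loops in chromatin, had an open start (*Ctcf*, *Nipbl*, *Rad21*, *Smc1a*), and 6 of them were of the CpG-rich class. Of 9 Trithorax and H3K27 demethylase genes, which counter Polycomb, 8 had an open start (*Ash2l*, *Kat6a*, and *Kdm6a* did, whereas *Kdm6b* had 11 regions in its window and no open start). Of 9 genes for the TALE cofactors, which bind DNA together with HOX proteins, 8 had an open start (*Meis1* and *Meis2* among them, but not *Meis3*). The retinoic acid receptors and caudal factors had 6 of 9 (66.7%), near the 57.2% of all protein-coding genes. The Trithorax and TALE counts (88.9% each) lay above that share of all genes, but each list holds only 9 genes. The Trithorax, TALE, and retinoic acid lists each held 4 genes of the CpG-rich class. Of all protein-coding genes, 87.7% of that class and 44.2% of the others had an open start. All 6 receptor genes were open, with 18 regions in the window of *Rara*, and the caudal genes *Cdx1*, *Cdx2*, and *Cdx4*, which switch on *Hox* genes in the embryo, were not. An open start says nothing of the level of the protein.

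The *Hox* regions differed from the whole list mainly in CpG. The 27 regions in *Hox* gene windows had a median GC of 58.0% and a median CpG observed over expected of 0.746, against 52.7% and 0.289 in all regions. Their median width was 151 bp, against 160 bp, and 14 of 27 (51.9%) were exactly 151 bp wide, against 46.5% of all regions. This was the most frequent width of the list, and the reason for it is not given in the sources used here. The 14 regions within 1 kb of a *Hox* start were wider (median 209.5 bp) and had a median CpG observed over expected of 0.906, and the 13 others had medians of 151 bp and 0.522. Of all regions at coding starts, the medians were 189 bp and 0.706, and of all regions away from coding starts they were 151 bp and 0.222. *Hoxa* stood apart here, since 11 of its 15 regions in gene windows were at a *Hox* start. The counts were 1 of 4 in *Hoxb*, 1 of 3 in *Hoxc*, and 1 of 5 in *Hoxd*. Of all 69358 regions, 20024 were at a coding start, so the counts in these other clusters lay near the background. The 5 *Hoxd* regions were all 151 bp wide. Regions of at least 200 bp made up 30.7% of all regions, and 8 of the 18 in the *Hoxa* window (44.4%). *Hoxc* and *Hoxd* had 0 such regions, but with 3 and 5 regions in all, this count says little. By the annotation at their midpoints, 9 of the 27 were in a *Hox* intron, 6 in a UTR, 2 in a coding exon, 4 in a noncoding gene only, and 6 between genes.

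Motif matches were few. SP/KLF, a GC box common at starts, was in 6 of 27 *Hox* gene window regions (22.2%), against 18.2% of all regions. Among regions at starts, however, it was in 3 of 14 at *Hox* starts (21.4%), against 45.5% of those at coding starts. HOX-PBX, the joint site of HOX and PBX proteins, was in 3 regions (11.1%), against 4.46%; all were in *Hoxa*, among them region 6 and region 7 at *Hoxa4*. PU.1, the site of a factor of the myeloid lineage, was in 2 regions (7.41%), both in *Hoxa*, against 3.82%, and AP-1, the site of JUN and FOS, was in 2 (7.41%), against 8.30%. YY1 (GCCATNTT) was in 1 (3.70%), against 2.99%. The stricter CTCF consensus was in 0 of 27 regions, against 2.54%, and the looser core was in 2 (7.41%), against 2.43%. The DR5 element, at which retinoic acid receptors bind, was in 1 region (3.70%), and 0.209% of all regions had a match. This match, in *Hoxa* region 6, reads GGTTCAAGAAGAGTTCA on the minus strand. With 27 regions, 1 region is 3.70 percentage points, so these shares are a description of the few sequences and no more.

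The *Hox* clusters also hold noncoding genes, and 9 of 25 of them (36.0%) had an open start, against 15.7% of 12217 noncoding genes of the annotation. Of the 9, 6 were in *Hoxa*, 0 in *Hoxb*, 1 in *Hoxc*, and 2 in *Hoxd*. In *Hoxa* these included Gm15050 within *Hoxa3*, 2700086A05Rik, which starts within *Hoxa3* and runs past it, and the microRNA gene *Mir196b*. In *Hoxc* it was Gm20398. In *Hoxd* these were 1700109F18Rik, with its first base 115 bp from region 3, and *Mir10b*. The open noncoding starts are not separate observations. *Mir196b*, RP23-329P9.11, and 9930038K12Rik lay beside the same region, *Hoxa* region 15. The regions at the first bases of Gm15050 and Gm20398 were also at starts of *Hoxa3* and *Hoxc10*. The microRNAs of the clusters fall into families that share a seed (bases 2 to 8), shown in capitals as RefSeq gives the mature sequences with the GRCm38.p6 build. The miR-10 family lies beside group 4 genes and the miR-196 family beside group 9 genes, and both are known to act on *Hox* mRNAs.
miR-10a-5p: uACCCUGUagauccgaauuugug
miR-10b-5p: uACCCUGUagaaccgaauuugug
miR-196a-5p: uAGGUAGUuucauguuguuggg
miR-196b-5p: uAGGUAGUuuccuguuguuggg

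*Mir10b* lay 585 bp from the region shared by *Hoxd3* and *Hoxd4*, and *Mir10a* lay 1445 bp from *Hoxb* region 3, which is in *Hoxb4*. *Mir196b* lay 640 bp from *Hoxa* region 15. The 2 genes that encode miR-196a were farther away, *Mir196a-2* in *Hoxc* at 6.58 kb and *Mir196a-1* in *Hoxb* at 38.1 kb, and *Mir615* in *Hoxc* was 15.4 kb from a region. At *Mir10b* and *Mir196b* the same region was also near a *Hox* start or another noncoding start, so it cannot be told which gene it belongs to.

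The cell type of all libraries was labelled as liver macrophage and their titles and design name Kupffer cells (KC), and markers of other liver cells were also open. Of 12 genes of each marker list, an open start was found for 7 of macrophages (58.3%), 11 of hepatocytes (91.7%), 9 of endothelial cells (75.0%), 5 of stellate cells (41.7%), and 2 of neurons and muscle (16.7%). The share of all protein-coding genes was 57.2%, and the macrophage list lay near it. Of the macrophage and hepatocyte genes, however, 0 had a CpG-rich start. Among all protein-coding genes without such a start, 44.2% had an open start. Both lists lay above that share, the hepatocyte list (11 of 12) by more than the macrophage list (7 of 12). The open macrophage starts included *Adgre1*, *C1qa*, *Cd5l*, and *Cd68*, and *Spi1*, the gene of PU.1, was open with 7 regions in its window. *Marco* and *Vsig4* had 0 regions in their windows. *Spi1*, *Marco*, and *Vsig4* were chosen for mention after their values were seen. Among hepatocyte genes, *Alb*, *Apoa1*, *Apob*, and *Cps1* were open. The list carries no signal, so how much each cell type gave to it is unknown, and whether the *Hox* regions came from macrophages or from other cells was not tested.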

How the data were processed

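Per the labels and the methods of the study, the authors trimmed adapters and aligned the reads to mm9 with Bowtie in the ATAC-Seq pipeline of the Kundaje laboratory, merged the aligned reads of replicates, and called peaks; HOMER was used for read counts. The peak caller, its threshold, and how peaks were joined are not given in the sources used here. The deposited file has 3 columns (chromosome, start, end) and no count or score, so depth and precision are unknown and no test was made. Starts are counted from 0 there and are printed from 1.

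Regions on chromosomes 1 to 19 and X (69358) were set against the GENCODE vM1 annotation and the NCBIM37 sequence with Python 3.11.15 and NumPy 2.4.6. Counting was checked on simulated regions. The genes were to be named each with its number of regions, with full values for open starts, for the gene with most regions in each cluster, and for genes without a region; list genes were named alphabetically. The members and lists were chosen with earlier results of these data known. Alternatives were other flanks, any overlap, regions of at least 200 bp, joined regions, other start windows, and another split of the groups. Some genes and sequences are not reported here or drawn, but they are in the counts.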

Additional observations from a re-analysis of the deposited data

How the results depend on the processing

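No count could be checked for replicate error, because the list gives no value for any library, and leaving out replicates was not possible. No paired analysis was possible because libraries have no values of their own in it. Depth is unknown, so a region that is not listed need not be closed. Of 48 recomputed values, 12 counts moved by over 1.5 times. A count cannot change sign. Only the difference between the 3′ and 5′ shares could reverse, and it kept its sign under each setting. With gene bodies only, 10 *Hox* genes had a region (22 with flanks) and 17 regions were counted (27 with flanks). With regions of at least 200 bp only, 10 genes had a region, 9 regions were counted, 7 genes had an open start (11 with all regions), and the *Hoxa*, *Hoxb*, *Hoxc*, and *Hoxd* windows held 8, 1, 0, and 0 regions (18, 6, 3, and 5 with all regions). For other gene flanks and for wide regions only, no share of all protein-coding genes is given here. Whether these *Hox* counts fell more than those of other genes is therefore unknown. With flanks of 100 kb, *Hoxc* held 7 and *Hoxd* 9. With the CpG class from 500 bp on either side, added after the data were seen, 6 of 19 *Hox* genes of the class had an open start at any position (3 of 14 as reported). The share of 3′ genes with a region was above that of 5′ genes by 37.5 percentage points, and under the other settings by 18.8 (flanks of 10 kb, a move of over 1.5 times) to 39.7 points.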
